A study of Mus musculus with 102 samples.

Results

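Gene expression was compared between calorie-restricted (CR) and control-fed aged mice at a single time of day, 4 h after lights on, called zeitgeber time (ZT) 4. The comparison rested on 7 of the 49 arrays of aged mice, chosen by their labelled age, diet and time point alone. The CR group held 3 arrays of epidermal stem cells from mice of 83 to 97 weeks that received 30% less food than the intake of mice feeding ad libitum. The control group held 4 arrays of mice of the same age fed control diet ad libitum. All mice of both groups were Per1-Venus BAC transgenic mice on the C57B6/J background, so the controls carried the reporter of the clock gene Per1 too. The diets ran for 25 weeks, after 3 weeks of adaptation in which the food of restricted mice was cut by 10% per week, and mice were 55 to 69 weeks old when adaptation began. The arrays closest in kind are those of adult mice of 47 to 57 weeks at ZT 4, with 6 CR and 4 control arrays. The series also holds 53 arrays of adult mice. The other 42 arrays of aged mice were taken at ZT 0, 8, 12, 16 and 20 under the same diets. The design text speaks of 4 mice per diet and time point but does not tie each array to a mouse. The p-values therefore measure spread between arrays. In the main fit, limma estimated that spread within all 24 groups of the series. The SEs and p-values of that fit thus do not rest on the spread of these 7 arrays alone.

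The circadian clock of a cell is a feedback loop. Arntl with Clock or its relative Npas2 activates genes through a short DNA element called the E-box, and the products of the Per and Cry genes repress that activation. Among the genes so driven are the PAR bZIP factors Dbp, Tef and Hlf, which carry the rhythm onward through an element called the D-box, where Nfil3 opposes them. In skin, the clock of epidermal stem cells is known to set apart DNA replication, energy metabolism and differentiation in time, and feeding is one of the signals that can set clocks in peripheral tissues.

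Upstream windows of 2 called output factors are printed to show where these letters were and were not found, Tef because its windows held an E-box or both elements and Dbp because its window held neither. Each runs from 250 bases before to 50 bases after a RefSeq transcript start (GRCm38.p6). Capitals mark the E-box searched as CACGTG and the D-box searched as TTANNTAA, which read the same on both strands and did not overlap. The first 2 windows belong to Tef on the plus strand, at chr15:81802423-81802722 and chr15:81811164-81811463, and the third to Dbp on the plus strand, at chr7:45704997-45705296.
Tef window 1: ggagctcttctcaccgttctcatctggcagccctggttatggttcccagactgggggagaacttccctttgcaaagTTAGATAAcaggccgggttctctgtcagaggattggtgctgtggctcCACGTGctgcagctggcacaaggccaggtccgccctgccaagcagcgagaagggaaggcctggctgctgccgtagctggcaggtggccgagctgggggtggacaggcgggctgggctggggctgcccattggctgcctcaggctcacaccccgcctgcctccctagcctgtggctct
Tef window 2: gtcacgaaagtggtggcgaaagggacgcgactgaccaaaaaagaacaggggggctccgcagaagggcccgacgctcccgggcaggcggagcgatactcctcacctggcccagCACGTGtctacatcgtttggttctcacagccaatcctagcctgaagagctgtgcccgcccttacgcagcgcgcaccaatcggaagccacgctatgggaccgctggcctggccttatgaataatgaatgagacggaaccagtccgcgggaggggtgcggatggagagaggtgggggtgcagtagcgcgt
Dbp window: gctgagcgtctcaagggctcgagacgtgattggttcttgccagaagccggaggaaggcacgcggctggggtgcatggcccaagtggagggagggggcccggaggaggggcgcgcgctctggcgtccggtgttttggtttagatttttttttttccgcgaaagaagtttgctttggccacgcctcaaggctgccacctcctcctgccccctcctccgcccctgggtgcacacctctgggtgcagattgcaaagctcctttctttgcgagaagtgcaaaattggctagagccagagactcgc
The E-box began 127 bases before the start in the first Tef window and 138 bases before it in the second. Of the 8 genes called below, 7 were matched in the table of windows, and 1 of these 7, Tef, held an E-box and a D-box. Of the 17 clock genes tested, 15 were matched, 4 held an E-box (Ciart, Cry1, Per1 and Tef) and 2 held a D-box (Per3 and Tef). Of all genes with a window 8.09% held the E-box and 6.93% the D-box, and of all 32851 windows 7.15% and 6.0% did. A match describes the letters of a window only.

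The values are log2 levels made by the authors with RMA, and a difference of 1 is a 2-fold change. The array medians of the series lay between 5.466 and 5.714. Control array 2 stood apart from the other 6: it correlated with them at r = 0.932 to 0.941 over all probe sets, while those 6 correlated with each other at 0.967 to 0.990. It also had the highest background level of the 7 arrays, 3.97. Xist, an RNA that coats the silenced X chromosome in female cells, lay above the mean of 3 Y-linked transcripts on 3 of 3 CR arrays and on 1 of 4 control arrays, control array 4. The labels give no sex, and diet and Xist class were nearly the same split here. In the series as a whole, 830 of the 13391 genes tested differed between arrays of high and low Xist at an adjusted p under 0.05 (limma). Results are therefore given with and without control array 2, and with the Xist level (Xist minus Y-linked transcripts) as a covariate where that moved them. Collection days are not tied to arrays in the labels, and no batch could be tested.

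The labelled cell type was checked against marker genes. All 11 markers of basal epidermis lay between the 94.9th and 100th percentile of gene levels. Krt14, a basal keratin, averaged 12.42 in CR and 12.48 in control. Markers of differentiated epidermis ranged widely, with the 12 on the array between the 2.23rd and 99.5th percentile. The suprabasal keratins Krt1 and Krt10 were near the top, Krt10 at 11.59 in CR and 11.73 in control, while Flg, the gene of filaggrin, was at the bottom. Cd34 and Lgr5, which define stem cells of the hair follicle bulge, lay at the 3.70th and 5.96th percentile, below the level needed for testing. The list of follicle stem cell markers went both ways, with 4 of 11 below that level and the chemokine gene Cxcl14 at the 98.2nd percentile. The defining leukocyte gene Ptprc (1.82nd percentile), fibroblast gene Pdgfra (4.81st) and melanocyte gene Kit (1.74th) were each the lowest of their list. The highest were Thy1 of the 14 immune markers (83.8th), Col6a1 of the 10 fibroblast markers (65.8th) and Mitf of the 7 melanocyte markers (69.7th). In such bulk samples, a change in the share of a cell type and a change of RNA per cell cannot be told apart.

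Under CR, 8 genes passed the threshold at ZT 4 in aged mice, and 4 of them belong to the clock: the output factors Dbp and Tef and the repressor Cry2 rose, and the activator Npas2 fell. The other 4, which all rose, were Sphk2, Tyro3, Abcg2 and Slc52a3. The called genes were 0.0597% of the 13391 genes tested (limma, Benjamini-Hochberg adjusted p under 0.05), with 0.0523% higher and 0.00747% lower. At an unadjusted p under 0.05 there were 2413 genes, 18% of all. Chance alone gives about 670, provided that the spread estimated over all 24 groups holds for these 7 arrays, which was not tested. The count was 1328 with the 7 arrays fitted alone and 1243 without control array 2, and both fits used fewer arrays. The excess in the main fit is therefore not read as a count of genes changed by diet. In that main fit 11% were higher and 7.01% lower. That split was not stable, since renormalizing the 7 arrays alone and fitting them alone left 1.93% higher and 6.57% lower. That fit changed both the scaling and the arrays behind the estimate of spread, and their separate parts were not tested. The median difference of all genes was 0.02. In 613 genes (4.58%) every CR array lay above every control array, and in 1076 genes (8.04%) every CR array lay below, so a gap between the groups is common in these 7 arrays.

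Among the activators, Npas2, the partner of Arntl that can stand in for Clock, was the only called gene that fell. Its level was 7.47, 7.46 and 7.55 on the CR arrays, against 8.24, 8.49, 8.29 and 8.26 on the control arrays. Both groups were tight and did not overlap. The difference was -0.83 ± 0.17 (SE from the limma fit of all groups, 3 and 4 arrays compared, limma adjusted p = 0.0122). A second probe set of the gene gave -1.03. Arntl, the central activator, was scattered in CR, at 7.22, 8.06 and 8.72, against 7.63, 8.09, 8.28 and 8.37 in control, and its difference of -0.09 ± 0.50 did not pass. Its second probe set gave -0.47. Clock differed by -0.02 ± 0.23, Rora, an activator of Arntl, by 0.12 ± 0.16 and Arntl2, a relative of Arntl, by 0.26 ± 0.17, none past the threshold. By the chosen probe sets, 1 of the 5 activators tested fell past the threshold and none rose past it. A dimmer probe set of Arntl2 gave 1.11 ± 0.32.

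Of the 9 repressors tested, 1 passed. Cry2, a repressor of the activator pair, rose, at 8.72, 8.61 and 8.29 in CR, against 7.82, 7.18, 7.05 and 7.64 in control. The lowest CR array stood above the highest control array. The rise was 1.12 ± 0.21 (limma adjusted p = 0.00292), or 2.17-fold. Its relative Cry1 differed by 0.08 ± 0.39 (limma adjusted p = 0.918).

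The Per genes and Nr1d2 were higher in CR on average without passing. Per2, a partner of the Cry proteins, was at 6.47, 6.99 and 6.98 in CR and at 6.03, 6.50, 6.38 and 6.20 in control, so the groups overlapped slightly (difference 0.54 ± 0.20, limma adjusted p = 0.187). Per3, of the same family, was at 7.96, 7.80 and 7.46 in CR and at 6.81, 8.16, 6.21 and 6.57 in control. Control array 2 held the highest Per3 value of all 7 arrays, and the difference was 0.80 ± 0.35 (limma adjusted p = 0.228). With that array left out it was 1.21, still short of the threshold (limma adjusted p = 0.379). Nr1d2, which represses Arntl, was at 8.99, 9.71 and 10.10 in CR and at 8.71, 9.13, 8.81 and 9.29 in control (0.62 ± 0.23, limma adjusted p = 0.175). Per1 differed by 0.35 ± 0.26 with means of 9.63 in CR and 9.28 in control. All mice carried a Per1 reporter transgene, and its part in the Per1 signal was not tested. Nfil3, the antagonist at the D-box, differed by -0.46 ± 0.32, Bhlhe40, a repressor at E-boxes, by -0.37 ± 0.28, and Ciart, a further repressor, by 0.11 ± 0.17, none past the threshold. At an unadjusted p under 0.05, 4 of 9 repressors were higher and none was lower.

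All 3 output factors were higher on average, and 2 passed. Dbp was at 7.25, 7.82 and 8.14 in CR, against 6.25, 6.18, 5.99 and 6.24 in control. The control arrays lay within 0.3 of each other, and the lowest CR array stood about 1 log2 unit above the highest of them. The rise was 1.57 ± 0.34 (limma adjusted p = 0.0224), or 2.96-fold. Tef, whose windows are printed above, was at 8.93, 9.12 and 9.12 in CR, against 8.37, 7.62, 8.13 and 8.38 in control. It rose by 0.93 ± 0.17 (limma adjusted p = 0.00164), and its second probe set gave 1.49. Hlf was at 9.29, 9.03 and 9.20 in CR and at 9.18, 7.84, 8.73 and 8.68 in control. Control array 1 reached the CR range of Hlf, and the difference of 0.56 ± 0.21 did not pass (limma adjusted p = 0.177). Control array 2 held the lowest Hlf value, and without it the difference was 0.31 (limma adjusted p = 0.588), while without control array 1 it was 0.75 and passed (limma adjusted p = 0.0467). With all arrays, a second Hlf probe set gave 0.41 ± 0.30.

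**Figure D1:**
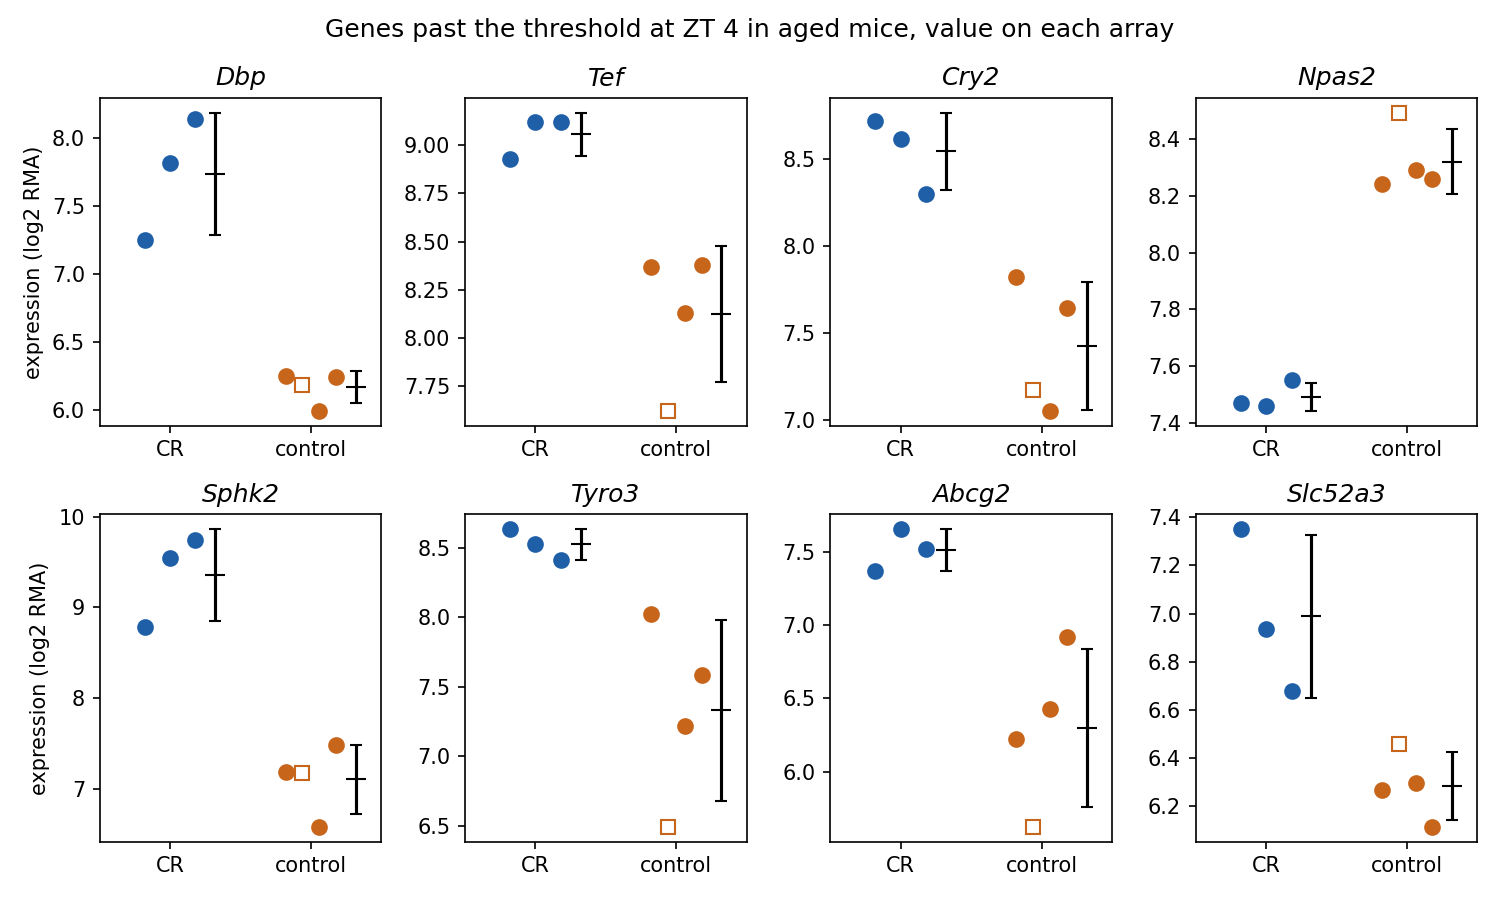
Expression (log2 RMA) of the 8 called genes on each array of aged mice at ZT 4, with 3 CR arrays at the left and 4 control arrays at the right of each panel; the open square is control array 2, and black bars give mean and SD. In no panel do the groups overlap, and control array 2 is the lowest value for Tef, Tyro3 and Abcg2. Axes do not start at 0 and differ between panels.

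Of the called genes outside the clock, Sphk2, a kinase that makes sphingosine 1-phosphate, had the smallest p. It was at 8.79, 9.54 and 9.75 in CR, against 7.18, 7.18, 6.58 and 7.49 in control. The difference was 2.25 ± 0.35 (limma adjusted p = 0.000115), or 4.76-fold, and a dimmer probe set of the gene gave 1.12 ± 0.36. Sphk2 and Dbp are overlapping neighbours on chromosome 7 in the RefSeq annotation (GRCm38.p6), so their signals are not taken as independent of each other.

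Tyro3, a receptor tyrosine kinase of the TAM family, was at 8.63, 8.53 and 8.41 in CR, against 8.03, 6.49, 7.22 and 7.59 in control. The control arrays were widely spread and the CR arrays tight, and the rise was 1.19 ± 0.24 (limma adjusted p = 0.00807). Its second probe set gave 0.46. Abcg2, an efflux transporter known for exporting dyes and drugs from stem cells, was at 7.37, 7.65 and 7.52 in CR, against 6.22, 5.62, 6.43 and 6.92 in control. The rise was 1.22 ± 0.26 (limma adjusted p = 0.0224), and control array 2 held the lowest value. Slc52a3, a riboflavin transporter, was at 7.35, 6.94 and 6.68 in CR, against 6.27, 6.46, 6.30 and 6.11 in control. Its rise of 0.70 ± 0.16 was the smallest of the rises (limma adjusted p = 0.0351).

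These calls leaned on single arrays to different degrees. Without control array 2, only Sphk2 passed, with 2.28 (limma adjusted p = 0.000611). For the other 7 the differences were 1.57 for Dbp (adjusted p = 0.0985), 0.77 for Tef (0.0764), 1.04 for Cry2 (0.0747), -0.77 for Npas2 (0.0985), 0.91 for Tyro3 (0.224), 0.99 for Abcg2 (0.302) and 0.76 for Slc52a3 (0.0747). Dbp, Npas2, Sphk2, Cry2 and Slc52a3 thus differed by nearly as much or more without that array, while the differences of Tef, Tyro3 and Abcg2 were smaller. CR arrays mattered too. Slc52a3 differed by 0.52 without CR array 1 (limma adjusted p = 0.417), and Dbp by 1.37 without CR array 3 and by 1.53 without CR array 2 (limma adjusted p = 0.203), short of the threshold in each case. With each of the 7 arrays left out in turn, Sphk2 passed in 7 fits, Tef in 6, Cry2, Tyro3 and Npas2 in 4 each and Dbp, Abcg2 and Slc52a3 in 3 each. With the Xist level as a covariate, 7 of the 8 genes passed and Abcg2 missed the threshold (1.11, limma adjusted p = 0.057). Over the whole series, none of the 8 genes differed between arrays of high and low Xist past the threshold, where 830 of 13391 genes did. The 7 arrays fitted alone gave 0 calls in limma, with 1328 genes at an unadjusted p under 0.05.

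Adult mice at ZT 4 gave a measurement on other arrays, 6 of CR and 4 of control, in which Xist was high on 4 of 6 and 3 of 4. All 8 genes differed in the same direction there, and all 8 had an unadjusted p under 0.05, where 2.36% of all genes did. After adjustment over all genes 3 of them passed in adults: Sphk2 (1.77 ± 0.30, limma adjusted p = 0.000394), Tef (0.88 ± 0.14, 0.000187) and Dbp (1.63 ± 0.28, 0.000688). In adults the other values were 0.71 ± 0.18 for Cry2, -0.42 ± 0.14 for Npas2, 0.47 ± 0.20 for Tyro3, 0.53 ± 0.22 for Abcg2 and 0.37 ± 0.13 for Slc52a3. The 6 genes called in adults (0.0448% of all) also held Per2 (0.85 ± 0.17), Per3 (1.32 ± 0.29) and the cell cycle gene Ccnd1 (0.42 ± 0.08). In aged mice Per2 and Per3 differed by 0.54 and 0.80 without passing.

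Over all tested genes the differences at the 2 ages gave r = 0.0039 and rho = -0.06 across genes, which are not independent replicates, and 45.5% had the same sign. The difference between the ages was tested gene by gene, and 0 of 13391 genes passed (limma), with 1196 genes (8.93%) at an unadjusted p under 0.05. For Dbp the aged minus adult difference was -0.06, with a 95% interval of -0.93 to 0.82, and for Tef it was 0.05 (-0.38 to 0.48). For Tyro3 it was 0.72 (0.11 to 1.33), and for Abcg2 0.68 (0.004 to 1.36), both intervals unadjusted for the number of genes (limma adjusted p = 0.530 for each). Control array 2 held the lowest value of both genes. Without it the aged differences were 0.91 for Tyro3 and 0.99 for Abcg2, beside 0.47 and 0.53 in adults. The intervals were not computed without that array. Arntl, at -1.20 ± 0.42 in adults and -0.09 ± 0.50 in aged mice, differed by 1.11 ± 0.65 between the ages without passing. The 3 genes with the smallest p in this test, none past the threshold, were the protease gene Klkb1 (-0.70 ± 0.19), Cdk6, a kinase of the cell cycle (0.73 ± 0.21), and the membrane protein gene Cmtm8 (-0.51 ± 0.14).

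**Figure D2:**
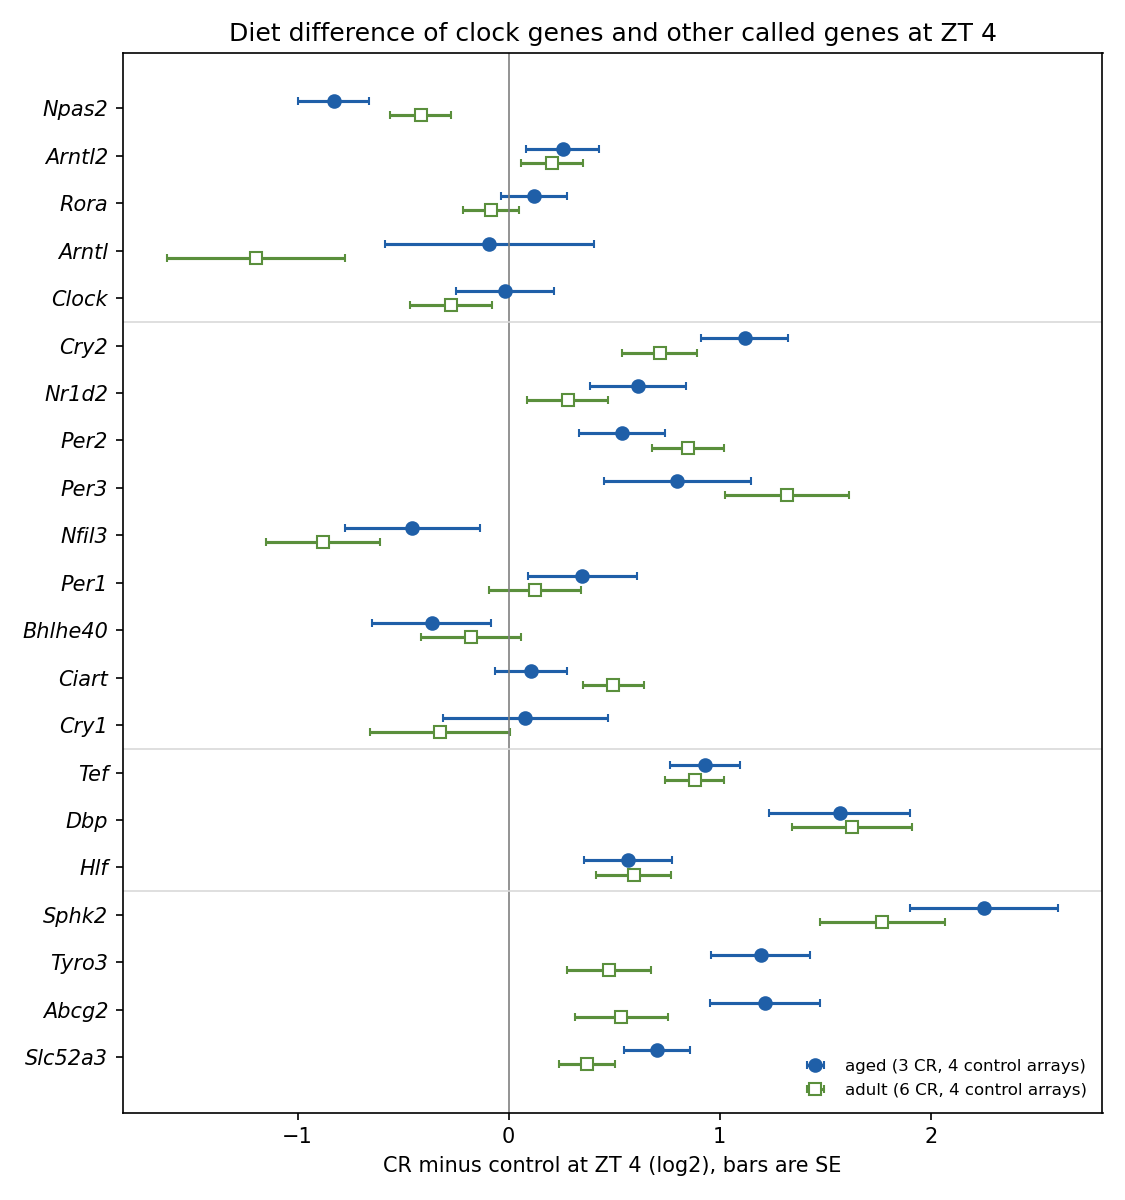
Difference of CR minus control at ZT 4 (log2, points with SE bars) in aged mice (filled circles, 3 CR and 4 control arrays) and adult mice (open squares, 6 CR and 4 control arrays), for activators, repressors, output factors and the other 4 called genes, from top to bottom. Dbp, Tef and Hlf lie close together at the 2 ages with all arrays (without control array 2 the aged value of Hlf is 0.31), and Arntl lies at -0.09 in aged and -1.20 in adult mice.

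The same genes were followed over the day in aged mice. In Dbp, Tef, Cry2 and Sphk2 the CR mean stood above the control mean at ZT 4 and below it at ZT 12, 16 and 20, and in Npas2 the order was the reverse. Dbp averaged 6.14, 7.73, 8.35, 7.17, 6.05 and 5.84 in CR at ZT 0, 4, 8, 12, 16 and 20, against 5.87, 6.17, 8.41, 8.77, 7.38 and 6.45 in control. At ZT 12 Dbp was 1.60 lower in CR (difference -1.60 ± 0.31, limma adjusted p = 0.00745), and at ZT 16 the difference was -1.33 ± 0.31 (0.0432). Genes called as lower were 0.0672% of all at ZT 12, 0.112% at ZT 16 and 0.0149% at ZT 20. Sphk2 fell by 1.96 at ZT 16 (limma adjusted p = 0.000614), and Tef fell by 0.73 at ZT 20 (0.0128). Npas2 was highest at ZT 4 in control, at 8.32, and averaged 7.49 there in CR, while at ZT 16 it averaged 8.07 in CR and 7.78 in control.

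Tyro3, Abcg2 and Slc52a3 followed another course. Their differences at the 5 other times lay between -0.12 and 0.10 for Tyro3, between -0.11 and 0.29 for Abcg2 and between -0.14 and 0.11 for Slc52a3. In Tyro3 the ZT 4 mean of 8.52 was the highest of the day in CR, and the ZT 4 mean of 7.33 the lowest of the day in control. The same held for Abcg2, with 7.51 in CR and 6.30 in control, and for Slc52a3, with 6.99 in CR and 6.28 in control. These genes were called for their difference at ZT 4, so outlying ZT 4 means are in part built into the choice. Control array 2 held the lowest ZT 4 value of Tyro3 (6.49) and Abcg2 (5.62), which lowers the control means of both.

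The diet difference at ZT 4 was then tested against the mean of the differences at the other 5 times, in which the same 7 arrays take part. In this test 8 genes passed (0.0597% of all), and 6 of them were among the 8 called at ZT 4. The differences were 2.97 ± 0.38 for Sphk2 (limma adjusted p = 2.04e-07), 2.23 ± 0.36 for Dbp (0.000168), 1.09 ± 0.18 for Tef (0.00017), 1.25 ± 0.22 for Cry2 (0.000975), -0.91 ± 0.18 for Npas2 (0.0085) and 1.20 ± 0.25 for Tyro3 (0.0195). The remaining 2 were Ung (2.10 ± 0.45), a glycosylase that removes uracil from DNA, and Baz1b (0.92 ± 0.20), a subunit of chromatin remodelling complexes. For CR against control at ZT 4, a dimmer Baz1b probe set gave 0.17 ± 0.15, against 0.75 ± 0.18 for the chosen one. Abcg2 (1.14 ± 0.28, limma adjusted p = 0.0844) and Slc52a3 (0.70 ± 0.17, 0.0769) did not pass. Control array 2 held the lowest ZT 4 value of Tyro3, Ung and Baz1b, and without it 4 of the 8 genes passed this test.

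**Figure D3:**
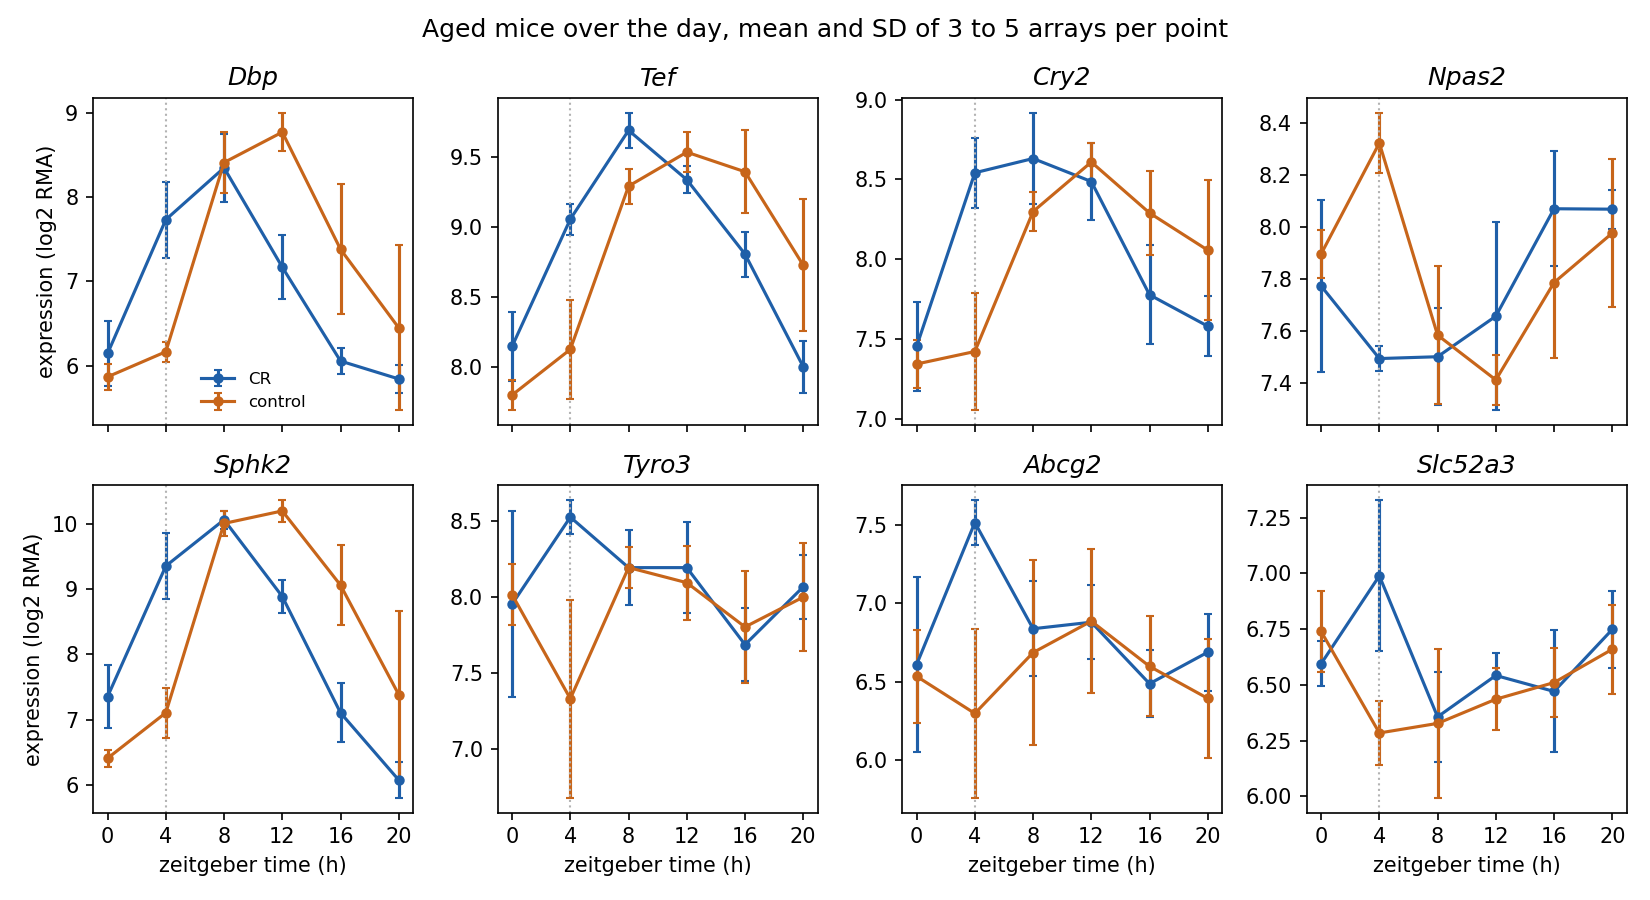
Expression (log2 RMA, mean and SD of 3 to 5 arrays) of the 8 called genes in aged mice at ZT 0 to 20 under CR (blue) and control diet (orange); the dotted line marks ZT 4. The CR line of Dbp, Tef, Cry2 and Sphk2 lies above control at ZT 4 and below it from ZT 12 on, while the lines of Tyro3, Abcg2 and Slc52a3 part at ZT 4 and lie close at the other times. All 8 genes were called for their difference at ZT 4.

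Just outside the threshold stood Ccnd1, the cyclin that opens the cell cycle, at 10.95, 11.04 and 10.98 in CR and at 10.78, 10.60, 10.29 and 10.56 in control (0.43 ± 0.10, limma adjusted p = 0.0521). Ung was at 8.58, 8.59 and 7.78 in CR and at 7.34, 5.31, 6.58 and 7.22 in control (1.70 ± 0.41, limma adjusted p = 0.0911). Control array 2 held by far the lowest Ung value, and without it the difference was 1.27. Baz1b averaged 9.43 ± 0.15 in CR and 8.68 ± 0.38 in control (SD, n = 3 and 4). Acot1, a thioesterase of fatty acyl-CoA induced in fasting, was at 7.61, 7.54 and 6.62 in CR and at 6.20, 5.90, 5.99 and 5.90 in control, a gap with no overlap (1.26 ± 0.33, limma adjusted p = 0.0942). After Npas2, the negative differences with the smallest p were those of Spa17, a sperm protein gene (-0.99 ± 0.25), Upk3a, a uroplakin (-0.43 ± 0.11), the olfactory receptor Olfr1508 (-0.76 ± 0.21), the adhesion receptor Adgrv1 (-0.83 ± 0.23) and the nuclear receptor Nr5a2 (-0.77 ± 0.21), none past the threshold. Most of these levels were low, with Spa17 at 4.89 in CR and 5.88 in control. Control array 2 held the highest value of Upk3a (6.56), Adgrv1 (7.98) and Nr5a2 (6.20). Control array 1 held that of Spa17 (6.71) and Olfr1508 (6.10).

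Other pathways were read from lists of genes, as counts at an unadjusted p under 0.05 beside the 11% of all genes that were higher and the 7.01% that were lower. No member of a list outside the clock passed the adjusted threshold. Members named below beyond the 1 of smallest p in each list were chosen after their values were seen. Of 27 genes of DNA replication, 11 were higher and 0 lower, with a median of 0.35. Among them were Rpa2, which binds single-stranded DNA (1.00 ± 0.30), Cdt1, which loads the replicative helicase (0.69 ± 0.21), and the helicase subunit Mcm2 (0.88 ± 0.32). Cdt1 was at 8.95, 9.36 and 9.17 in CR and at 8.07, 8.87, 8.64 and 8.32 in control. Rpa2 was at 8.10, 8.37 and 8.07 in CR and at 7.80, 5.90, 7.63 and 7.38 in control, with control array 2 far below the rest. A dimmer Rpa2 probe set gave 0.38 ± 0.35. When control array 2 was left out, 4 of the 27 were higher beside 4.80% of all genes, and the median was 0.29. The same 4.80% stands beside the counts of higher genes without control array 2 in the lists below. Of 24 genes of mitosis none was higher or lower, and their median was 0.02. In adults the median was 0.19 for DNA replication and -0.24 for mitosis.

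Of 13 targets and components of Notch and WNT signalling, 8 were higher and 0 lower, with a median of 0.46. Beside Ccnd1 they included Notch1, a receptor that drives differentiation in the epidermis (0.67 ± 0.17), Hes1, a repressor induced by Notch (0.95 ± 0.24), and the WNT receptor Fzd7 (1.03 ± 0.30). Hes1 was at 8.20, 8.55 and 8.73 in CR and at 7.62, 7.34, 7.57 and 7.63 in control, with no overlap. Notch1 was at 10.48, 10.71 and 11.06 in CR and at 10.40, 9.51, 9.92 and 10.47 in control, where the highest control array nearly met the lowest CR array. With control array 2 left out, 7 of the 13 were higher with a median of 0.45, and with the Xist covariate 7 were higher and 1 lower. Of all 13391 genes, 1243 reached an unadjusted p under 0.05 (limma) in either direction without that array, and 2561 did with the covariate. In adults the median was 0.07. Of 20 genes of DNA repair, 8 were higher and 0 lower with a median of 0.35, led by Ung, Atm, a kinase that signals DNA breaks, and its relative Atr. There were 3 without control array 2.

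In metabolism, 5 of 17 genes of fatty acid oxidation were higher and none was lower, with a median of 0.22. Eci2, an isomerase of unsaturated fatty acids, was at 9.34, 9.28 and 9.03 in CR and at 7.87, 8.15, 8.15 and 8.32 in control (1.09 ± 0.29, limma adjusted p = 0.109). Over the whole series Eci2 was 0.35 higher on arrays of high Xist (limma adjusted p = 0.000342), and with the Xist covariate its difference was 0.86. Cpt1a, which admits fatty acids to mitochondria, was at 9.62, 9.57 and 9.34 in CR and at 8.95, 9.28, 8.49 and 8.52 in control (0.70 ± 0.21, limma adjusted p = 0.134), and its Xist difference was -0.02. Of the 17 genes, 2 were higher without control array 2, while the Cpt1a difference was 0.86.

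Of 14 genes of glycolysis, 0 were higher and 5 lower, and 13 had a negative difference, with a median of -0.28. Pkm, pyruvate kinase, was at 10.64, 10.59 and 10.84 in CR and at 11.22, 10.88, 11.39 and 10.95 in control (-0.42 ± 0.17, limma adjusted p = 0.208). Aldoa, aldolase, gave -0.32 ± 0.13. Over the whole series 12 of the 14 glycolysis genes were lower on arrays of high Xist past the adjusted threshold (limma), with a median of -0.24. Of all 13391 genes, 830 differed there in either direction. With the Xist covariate the median of the diet difference was -0.12 and 0 of 14 were lower. The median level of the 14 genes was 10.43, 10.19 and 10.49 in CR and 10.92, 10.51, 10.88 and 10.54 in control. Control array 2 thus held the lowest of the control levels. Bnip3, a mitophagy receptor, averaged 10.04 ± 0.30 in CR and 11.01 ± 0.37 in control (SD, n = 3 and 4, difference -0.97 ± 0.31, limma adjusted p = 0.155), and it was 0.47 lower on arrays of high Xist (Xist difference -0.47).

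Of 20 genes of oxidative phosphorylation, 19 had a positive difference with a median of 0.22, but 1 of them, Ndufv1, reached an unadjusted p under 0.05. The median was -0.06 and 0 of 20 were higher without control array 2. The tricarboxylic acid cycle gave a median of 0.21 with 1 of 13 higher, the transferase subunit Dlst (0.44 ± 0.20). With control array 2 left out its median was 0.03, 0 of 13 were higher, and the Dlst difference was 0.09.

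Markers of other cells were read in the same way, and none passed the adjusted threshold. Of 9 markers of the infundibulum and upper hair follicle, 4 were higher and 1 lower, with a median of 0.53. The median level of these markers lay between 8.62 and 9.05 on CR arrays and between 7.83 and 8.10 on control arrays. Krt79, a keratin of the follicle's upper canal, was at 9.07, 9.05 and 8.62 in CR and at 7.60, 5.85, 7.45 and 7.97 in control (1.70 ± 0.57, limma adjusted p = 0.158). Without control array 2, 1 of the 9 was higher, the median was 0.46 and the Krt79 difference was 1.24. Over the whole series 3 of these 9 markers were higher on arrays of high Xist (limma), where 830 of all 13391 genes differed in either direction. All 6 fibroblast markers tested had a negative difference with a median of -0.38, and 2 of them were lower, Vim and Dcn. Of all 10 fibroblast markers, the median level lay between 4.74 and 5.33 on CR arrays and between 5.24 and 5.72 on control arrays, close to the level of 4.73 below which genes were not tested. The median level of the 14 immune markers lay between 5.46 and 5.66 on CR arrays and between 5.29 and 5.74 on control arrays. Of the 11 tested, 8 had a negative difference and 3 a positive one, with a median of -0.22, and 2 were lower, Cd74 and H2-Eb1. All 4 endothelial markers tested (median -0.22) and all 6 of skeletal muscle (median -0.04) had a negative difference too, with 0 and 1 lower. Melanocyte and erythrocyte markers, 2 tested of each, went both ways. The part of these cells in the differences above was not tested. Basal markers gave a median of 0.02 and markers of differentiated epidermis -0.07.

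**Figure D4:**
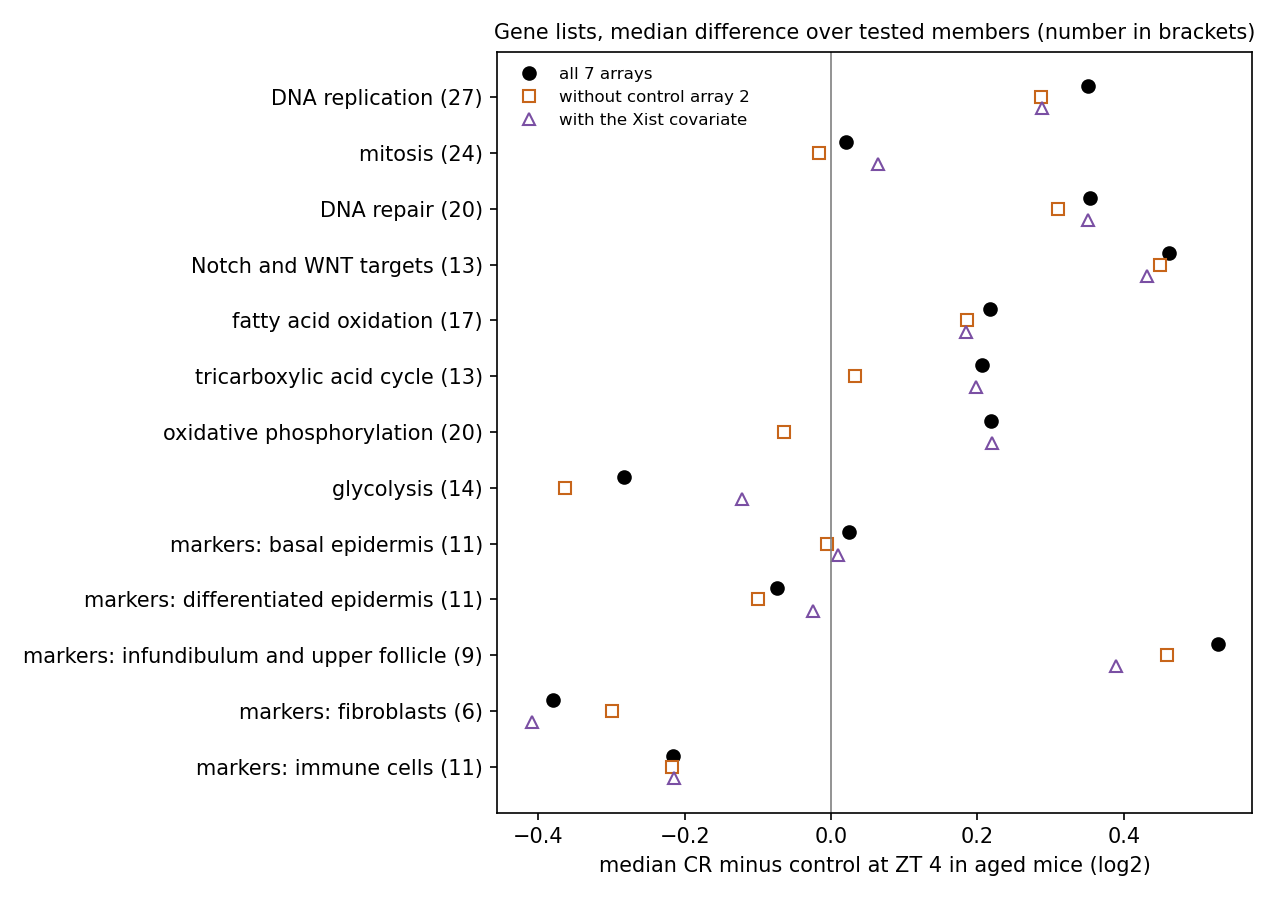
Median difference of CR minus control at ZT 4 in aged mice (log2) over the tested members of 13 gene lists, with all 7 arrays (filled circles), without control array 2 (open squares) and with the Xist covariate (open triangles). The Notch and WNT list stays near 0.45 in all 3, oxidative phosphorylation crosses 0 without control array 2, and glycolysis moves to -0.12 with the Xist covariate.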

How the data were processed

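Expression was measured on Affymetrix mouse arrays, from 25 ng of total RNA amplified over 17 cycles per the labels' protocols. The authors deposited log2 values made with RMA, per the submitters' processing notes; the version is not given in the sources used here. Of 45140 probe sets, 28898 carried 1 gene symbol, 551 several and 15691 none. The brightest probe set stood for each of 17097 genes, and genes below the 30th percentile of probe set means (4.733) were left out, which left 13391. RMA gives all arrays nearly the same distribution, so levels are relative. The small number of arrays limits precision. Differences come from limma 3.58.1 in R 4.3.3, with a mean for each of 24 groups over all arrays of the series, moderated tests and Benjamini-Hochberg adjustment over all genes at 0.05. Two-sided p-values are used, and intervals are 95%. The code was tested on simulated data. Genes were named by rule: the largest changes past the threshold, filled to 6 per direction by smallest p, all tested clock genes, up to 4 called members or the member of smallest p in each list, and the leading genes of both difference tests. Genes, 39 lists and tests were chosen with earlier results of these data known. Of 581 list genes 465 were tested; the others are not analysed here.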

Additional observations from a re-analysis of the deposited data

Results flagged for a closer look

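In 4 of the named genes, control array 2 was marked as apart from the other 3 control arrays, by its gap relative to the range of the 4. Ndufv1, a subunit of respiratory complex I, was at 8.75 there, with the nearest array at 10.7. Edem1, of protein quality control in the endoplasmic reticulum, was at 5.95, with the nearest at 7.26, and the ribosomal protein gene Rps14 was at 10.23, with the nearest at 12.03. Alas2, of haem synthesis, was at 5.08, with the nearest at 5.37, and that value lay within the CR range of 4.92 to 5.21. Chance alone marks some groups in this way. All 4 marks fell on the array that correlated least with its group. These 4 genes had been named for the smallest p of their lists, which the values of that array affect. The marks are therefore no separate test of the array, and their cause was not tested.

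The diet difference at ZT 4 in aged mice departed from the mean of the other times in 8 genes, by limma's test of that difference. The departures were 2.97 for Sphk2, 2.23 for Dbp, 2.10 for Ung, 1.25 for Cry2, 1.20 for Tyro3, 1.09 for Tef, 0.92 for Baz1b and -0.91 for Npas2.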

How the results depend on the processing

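The main count of 8 called genes ran from 1 to 261 when each array was left out in turn, with 1 without control array 2, 261 without control array 1, 66 without control array 4 and 3 without CR array 1 or 2. It was 0 with only the arrays of the groups compared, 0 with the 7 arrays quantile normalized and fitted alone, 4 with only the arrays of aged mice, 5 with array background as a covariate and 1202 with array weights, whose estimation stopped before it converged. With the Xist covariate and without control array 2 it was 1, an alternative chosen after the data had been seen. Correlations of deviations between CR and control arrays of the same replicate number were 0.37, -0.08 and 0.33. Between arrays of different numbers they ran from -0.41 to 0.15. Whether the replicate numbers pair the arrays was not tested. The replicate block gave 71 calls, or 390 for ZT 4 against the other times. The causes of these shifts were not tested. That second count, 8 in the main analysis, was 4 to 454 with each array left out, 708 with array weights, 14 with the mean of all probe sets of a gene, 4 with array background as a covariate and 13 with each probe set tested on its own. The age difference gave 2 calls with array weights, against 0. Over 21 alternatives Sphk2 passed in 19, Tef in 17, Cry2 in 15, Tyro3 in 14, Dbp, Npas2 and Slc52a3 in 12 each and Abcg2 in 10, and the differences ran from 1.69 to 2.54 for Sphk2, from 1.37 to 1.81 for Dbp, from 0.75 to 1.21 for Tef and from -1.03 to -0.64 for Npas2. None of the 8 called genes turned its sign in these alternatives. The signs of the other named genes were not compared in this way. The 7 arrays alone could not be used for the tests of age and of the other times.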

Other observations

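Several clock genes had a dimmer probe set that differed more than the one chosen. For Per2 it averaged 6.72 in CR and 5.17 in control, a difference of 1.55 ± 0.36, and for Nr1d2 it averaged 8.57 in CR and 7.35 in control, a difference of 1.22 ± 0.30. For Arntl2 the dimmer probe set gave 1.11 ± 0.32, against 0.26 for the chosen one. In Per3 the probe sets above the filter gave 0.80, 0.59, 0.35 and 0.31. These rows were looked up after the results had been seen.

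Further lists are given as counts at an unadjusted p under 0.05, beside 11% of all genes higher and 7.01% lower. Of 8 targets of PPAR factors 2 were higher, Acot1 and the lipid droplet gene Plin2, and of 12 genes of the amino acid response 2 were lower, the lipoprotein receptor Vldlr (-0.56 ± 0.17) and Shmt2, of serine metabolism. Of 7 follicle stem cell markers tested 2 were higher, the BMP antagonist Grem1 (0.65 ± 0.25) and the transcription factor Foxc1. Of 14 genes induced by glucocorticoids, 1 was lower (Lcn2, an iron-binding protein of innate immunity, -0.28 ± 0.12) with a median of -0.003. Of 17 genes of cholesterol synthesis none was higher or lower, with a median of 0.04. Of 19 genes of the unfolded protein response 1 was higher, Edem1, with a median of -0.07. A dimmer Edem1 probe set gave 0.008 ± 0.25, against 0.61 ± 0.28 for the chosen one. Of 12 heat shock genes 3 were higher, among them Hspa1b, an inducible chaperone, at 0.49 ± 0.18. Of 19 genes of fatty acid and triglyceride synthesis 3 were higher, among them Gpam, which starts glycerolipid synthesis, at 0.66 ± 0.21 in aged mice and 0.60 ± 0.17 in adult mice. Gclc, of glutathione synthesis, averaged 7.74 ± 0.41 in CR and 6.79 ± 0.45 in control (SD, n = 3 and 4) and was the 1 of 18 antioxidant genes that was higher, while in adults its difference was -0.09 ± 0.24. Of 19 immediate early genes 2 were higher, of 16 autophagy and lysosome genes 2 were higher and 1 lower, and of 13 interferon genes 1 was higher and 2 were lower. Of 17 ribosomal protein genes 1 was higher, of 9 TGF-beta and BMP targets 1 was higher, and of 15 FOXO and fasting genes 1 was higher and 1 lower, as for 14 inflammation genes. The ribosomal gene was Rps14, at 12.17, 11.93 and 11.98 in CR and at 12.10, 10.23, 12.14 and 12.03 in control. Only control array 2 lay below the CR arrays.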
